A study of Homo sapiens with 9 samples.

Results

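The FOS and JUN families are the 7 genes *FOS*, *FOSB*, *FOSL1*, *FOSL2*, *JUN*, *JUNB* and *JUND*. They were taken by gene symbol from the deposited count table, where all 7 were present among 26364 gene names, and all 7 passed the expression filter in every comparison. RNA-seq was done in 9 libraries of A549, a human lung adenocarcinoma line. The A549 group (2 libraries) was labelled wild type, and the LA group (2 libraries) carried guides against *LOC388942* and *ALK* that create the *LOC388942-ALK* (*LA*) fusion. The sgScr group (3 libraries) and the sg*FOS* group (2 libraries) carried the same pair of guides together with a scramble guide or a guide against *FOS*. According to the study's methods, the fusion guides were delivered by lentivirus to A549 cells that express Cas9, and the fusion cells were grown from single cells. The sources do not say whether the 2 LA libraries came from the same clone, whether the control cells carry Cas9, or which *FOS* guide was used in which library.

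FOS and JUN proteins bind DNA in pairs as the transcription factor AP-1. The JUN proteins can pair with each other, whereas the FOS proteins need a JUN partner. *FOS*, *FOSB*, *JUN* and *JUNB* are immediate-early genes, which are transcribed within minutes of a growth factor signal through ERK and other kinases and whose RNA decays quickly, whereas *FOSL1* and *FOSL2* rise later and *JUND* is usually expressed without a stimulus. In lung adenocarcinoma, kinases such as ALK and EGFR signal to these genes through ERK.

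The sequences of the *FOS* guides are shown because *FOS* was the edited gene and the position of the cuts bears on what its RNA count measures. Capitals mark the PAM, and the bases were read from GRCh37 (called hg19 in the methods).
sgFOS-1, chr14:75748005-75748023, plus strand: ttcgtcttcacctaccccgAGG
sgFOS-2, chr14:75747953-75747971, minus strand: ggtgaccaccggagtgcacAGG
Both lie in exon 4, the last exon of *FOS*. The expected cut of sgFOS-2 falls after 971 of the 1140 coding bases (85.2%) and that of sgFOS-1 after 1036 (90.9%), 65 bp apart. Of the transcript of 2104 bases, 53.5% and 56.6% lie before these cuts. The deposited counts are 1 number per gene, so they measure how much *FOS* RNA remained and not how much of it was edited.

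The promoters of 5 members are shown because these genes moved together or apart in the libraries described here. Each is the 250 bases before the annotated transcript start on GRCh37, read 5′ to 3′ along the gene. Capitals mark TGACG, the core of the cyclic AMP response element (CRE), the variant TGACATCA, the AP-1 site TGANTCA and the TATA box TATAAA. They were searched on both strands, and the full CRE TGACGTCA holds the core on each strand.
FOS, chr14:75745281-75745530, plus strand: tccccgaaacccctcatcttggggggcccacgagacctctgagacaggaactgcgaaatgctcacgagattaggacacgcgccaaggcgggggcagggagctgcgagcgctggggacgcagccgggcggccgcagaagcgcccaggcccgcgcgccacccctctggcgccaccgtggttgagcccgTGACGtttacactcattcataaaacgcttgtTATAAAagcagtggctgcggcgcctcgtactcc
FOSB, chr19:45971004-45971253, plus strand: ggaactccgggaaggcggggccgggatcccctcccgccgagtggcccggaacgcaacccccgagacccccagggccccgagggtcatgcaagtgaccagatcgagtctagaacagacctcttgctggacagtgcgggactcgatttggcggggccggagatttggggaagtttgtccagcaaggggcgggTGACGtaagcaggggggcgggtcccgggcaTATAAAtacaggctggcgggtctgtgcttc
JUNB, chr19:12902050-12902299, plus strand: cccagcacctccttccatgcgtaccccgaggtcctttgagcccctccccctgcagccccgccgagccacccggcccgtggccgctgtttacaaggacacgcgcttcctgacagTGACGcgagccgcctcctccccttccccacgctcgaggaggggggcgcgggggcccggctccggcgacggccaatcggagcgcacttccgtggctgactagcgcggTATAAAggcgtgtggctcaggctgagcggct
JUN, chr1:59249720-59249969, minus strand: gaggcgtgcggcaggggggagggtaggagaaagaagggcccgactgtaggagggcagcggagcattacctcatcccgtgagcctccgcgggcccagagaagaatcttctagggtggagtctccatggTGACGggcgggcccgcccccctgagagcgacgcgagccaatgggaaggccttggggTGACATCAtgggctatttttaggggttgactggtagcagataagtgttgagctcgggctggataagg
JUND, chr19:18392433-18392682, minus strand: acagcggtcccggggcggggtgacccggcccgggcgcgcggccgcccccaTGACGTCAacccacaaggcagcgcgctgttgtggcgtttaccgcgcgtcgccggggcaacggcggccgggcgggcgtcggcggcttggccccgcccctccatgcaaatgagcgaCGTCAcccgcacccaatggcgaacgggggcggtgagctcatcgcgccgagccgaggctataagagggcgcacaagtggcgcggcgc
The CRE core occurred in this window in 7 of 7 members and in 25.4% of the windows of 19854 coding genes. TATAAA occurred in *FOS*, *FOSB* and *JUNB* and in 9.26% of all windows. TGACGTCA occurred only in *JUND* among the members (2.40% of all windows), TGACATCA only in *JUN* (1.92%), and TGANTCA in 0 of 7 members (4.70%). Within 500 bases of the start, TGACGTCA also occurred in *FOSB*, and in 2.89% of all coding genes. Over the same 500 bases the CArG box, the binding site of serum response factor (SRF), occurred in *FOS* and *FOSB* and in 2.40% of all coding genes. The boxes are printed with capitals for the CArG box.
FOS, chr14:75745207-75745236, plus strand: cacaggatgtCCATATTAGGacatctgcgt
FOSB, chr19:45970970-45970999, plus strand: cggccgagctCCTTATATGGctaattgcgt
A match describes the letters in the window and does not show that a factor bound there.

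Total counts per library ranged from 14507228 to 20456341. The replicates of the A549 and LA groups were far apart: the chi-square statistic of their counts, divided by its degrees of freedom (about 1 for sampling noise alone), was 125 and 58.1, against 1.74 to 2.65 within the sgScr and sg*FOS* groups. Nothing in the labels says whether replicates were separate cultures, so p-values measure the spread between these libraries, which may be technical. Epithelial keratins were abundant, with 51670 to 158979 counts of *KRT8* per library, whereas the lung lineage factor *NKX2-1* had 0 or 1 counts and the leukocyte marker *PTPRC* had 0 counts in every library. *ALK*, the gene joined in the fusion, had 0 counts in both A549 libraries, 2 and 15 in the LA libraries, and 0 to 4 in the sgScr and sg*FOS* libraries, where 0 counts allow up to 3. In all comparisons against A549, fold changes rose with transcript length (Spearman correlation across genes of 0.565 to 0.597) and fell with GC content (-0.380 to -0.309), and values from a fit corrected for both are given beside members whose sign, call or size depended on it. The members' transcripts range from 1702 bases in *FOSL1* to 6713 bases in *FOSL2*, and their GC content from 52.8% in *FOS* to 69.9% in *JUND*.

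In A549 control cells, *JUND* made up most of the family's RNA and *FOS*, *FOSB*, *FOSL2* and *JUN* were low. In fusion cells *FOS* was the member with the highest level per length in 4 of 5 libraries of the LA and sgScr groups, and in sg*FOS* cells *JUNB* was. To compare members, each library's normalised counts were divided by transcript length, giving CPM per kilobase after TMM normalisation (scaling by trimmed means, which sets libraries on a common level). On this scale *JUND* was at 196 and 95.1 in the A549 libraries and *FOS* at 4.99 and 4.34. *FOS* was at 160 and 43.5 in the LA libraries, 94.2 to 97.3 in the sgScr libraries, and 32.6 and 35.3 in the sg*FOS* libraries. The sum over the 7 members was 288 and 154 in A549, 388 and 220 in LA, 313 to 316 in sgScr, and 249 and 254 in sg*FOS*.

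As a share of that sum, *JUND* was 68.1% and 61.9% in the A549 libraries, 15.8% and 47.6% in LA, 14.8% to 14.9% in sgScr, and 17.4% and 16.8% in sg*FOS*. *FOS* was 1.73% and 2.83% in A549, 41.1% and 19.8% in LA, 30.1% to 30.8% in sgScr, and 13.1% and 13.9% in sg*FOS*. The share of *FOS* was thus lowest in both control libraries, and the LA libraries lay on both sides of the sgScr range. The 4 FOS genes together held 15.1% and 13.5% in A549, 61.5% and 38.9% in LA, 47.3% to 49.4% in sgScr, and 36.3% and 37.8% in sg*FOS*. With merged exon length in place of the longest coding transcript, *JUNB* (mean share 26.5%) lay above *FOS* (23.5%) in sgScr cells, so the order of these neighbours depends on the length used, and *JUND* remained first in both A549 libraries (69.5% and 63.3%). These are descriptions, with no test.

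**Figure D1:**
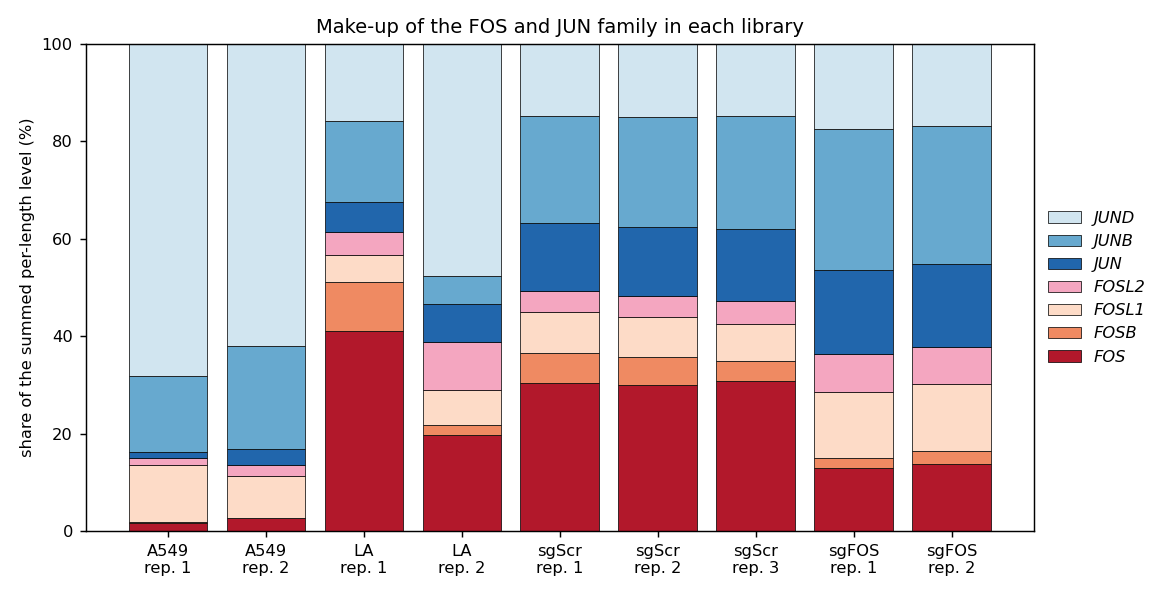
Stacked bars show each member's share, in percent, of the summed per-length level (CPM per kilobase) of the 7 members, 1 bar per library, with JUN genes in shades of blue and FOS genes in red, orange and pink. JUND takes 68.1% and 61.9% of the A549 bars, and FOS takes 13.1% to 41.1% of the LA, sgScr and sgFOS bars.

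The first comparison was fusion cells against control cells. *FOS*, *FOSB*, *FOSL2* and *JUN* were higher in LA cells and *FOSL1*, *JUNB* and *JUND* did not pass the test. With edgeR's quasi-likelihood test at an adjusted p under 0.05, 4 of 7 members were called higher and 0 lower, against 9.57% and 9.94% of all 14425 genes tested. The groups did not overlap for these 4 members, as for 63.6% of all genes. The median log2 fold change was 2.18 over the members and 0.044 over all genes. Levels from here on are TMM-normalised CPM over the whole gene, which are not comparable between genes. In bulk RNA, a higher level in every cell and a larger share of expressing cells cannot be told apart.

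*FOS* was at 10.5 and 9.14 CPM in the A549 libraries and at 336 and 91.6 CPM in the LA libraries. Both LA libraries lay above both controls, but they differed from each other 3.66-fold. The fitted change was 21.3-fold (log2 4.41, SE 0.54, adjusted p = 2.0e-05 with edgeR), with log2 values of 3.16 without LA replicate 1 and 5.07 without LA replicate 2. *FOSB*, the member nearest to *FOS* in its regulation, was at 1.07 and 0.118 CPM in the controls and at 148 and 17.5 CPM in the LA libraries. Its control values rest on 17 and 2 counts, and the 2 counts of replicate 2 have an exact 95% Poisson interval of 0.242 to 7.22 counts (counting error only). The fitted log2 change was 7.10 (SE 0.87, adjusted p = 1.9e-05), or 4.83 without LA replicate 1, 7.95 without LA replicate 2, 6.15 without A549 replicate 2 and 9.31 without A549 replicate 1, where it rests on those 2 counts.

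*FOSL2*, a FOS gene without a transactivation domain of the kind found in FOS, was at 31.4 and 23.0 CPM in the controls and at 127 and 147 CPM in the LA libraries. Here LA replicate 2 was the higher one, unlike in *FOS*. The change was 4.90-fold (log2 2.29, SE 0.41, adjusted p = 0.00120), with a log2 value of 1.77 (adjusted p = 0.00563) after the length and GC correction and an adjusted p of 0.0534 without LA replicate 2. *JUN*, the partner shared by all FOS proteins, was at 11.2 and 17.3 CPM in the controls and at 78.1 and 54.6 CPM in the LA libraries. The change was 4.53-fold (log2 2.18, SE 0.44, adjusted p = 0.00230). Without LA replicate 1 it was not called (log2 1.87, adjusted p = 0.0950).

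The other members overlapped between the groups. *FOSL1* was at 57.1 and 22.1 CPM in the controls and 35.9 and 26.7 CPM in LA cells (log2 -0.38, 95% interval -1.31 to 0.56, adjusted p = 0.597). *JUNB* was at 82.1 and 59.4 CPM against 118 and 23.6 CPM in LA cells, so the control values lay between those of the LA libraries (log2 -0.04, interval -1.08 to 1.01, adjusted p = 0.970). *JUND* was at 378 and 183 CPM against 119 and 202 CPM in LA cells (log2 -0.85, interval -1.75 to 0.06, adjusted p = 0.175). For these 3 members the sign turned with the length and GC correction, to 0.57, 1.00 and 0.20, and none was called there, whereas the 4 called members stayed called. Without A549 replicate 2, which leaves 1 control library, *FOSL1* and *JUND* had log2 values of -0.99 and -1.36.

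**Figure D2:**
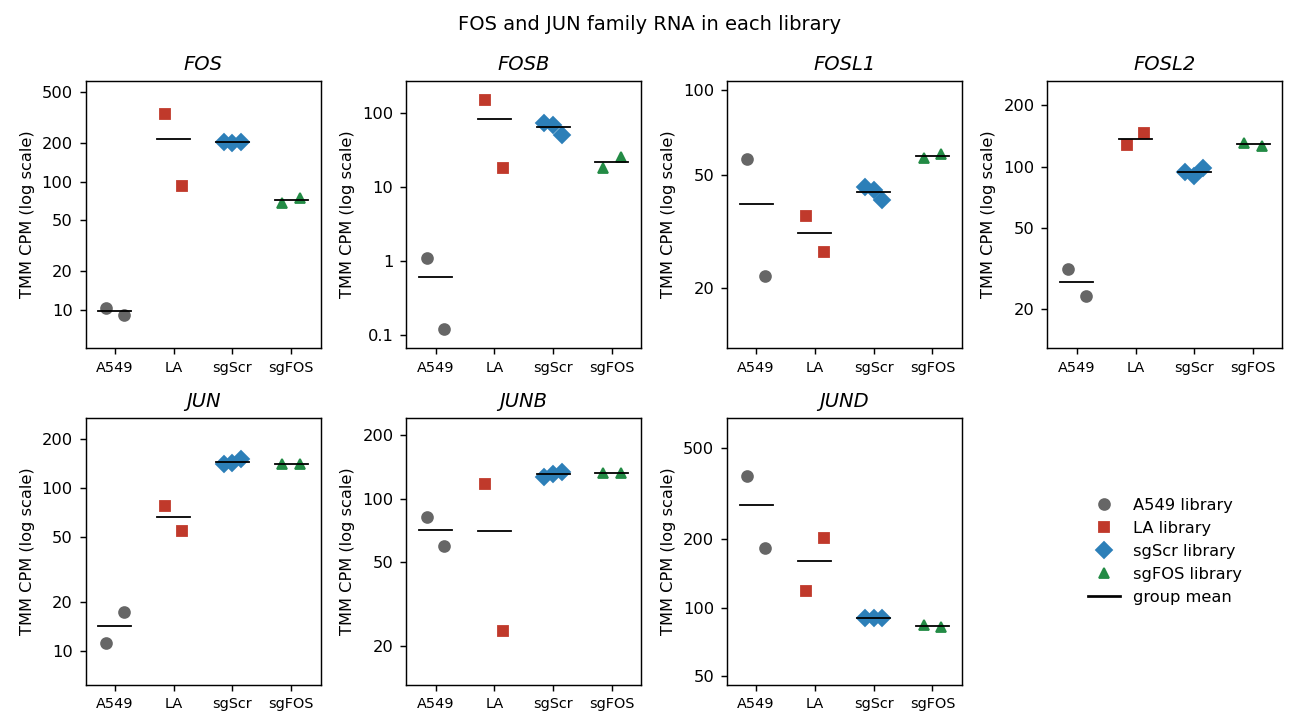
Each panel shows a member's level in TMM CPM on a log axis, with 1 point per library and a line at the group mean, for the A549, LA, sgScr and sgFOS groups. FOS lies at 9.14 and 10.5 CPM in A549 and at 68.6 CPM or above in the other groups, whereas the group mean of JUND is highest in A549 and LA replicate 2 (202 CPM) lies above A549 replicate 2 (183 CPM).

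The LA libraries were not equally far apart for every member. *FOSB*, *JUNB* and *FOS* were 8.42-fold, 4.98-fold and 3.66-fold higher in LA replicate 1 than in LA replicate 2. These gaps lay above those of 99.9%, 99.8% and 99.5% of the genes tested, whose median gap was near 0. *JUN* and *FOSL1* were 1.43-fold and 1.34-fold higher in replicate 1, within the middle 90% of all genes (log2 -1.26 to 0.87), while *FOSL2* and *JUND* were 1.15-fold and 1.70-fold lower. The 3 members with the largest gaps are those with TATAAA in the promoters printed above. Several motifs were searched and the gaps are between these LA libraries only, so this is a description, and a link was not tested. Among the 21 tested immediate-early genes outside the family, 11 were higher in replicate 1 and the median log2 gap was 0.13, so the list as a whole did not share this difference. The 7 genes of this list with the widest gaps, picked after their gaps were seen, were *ARC*, *KLF10*, *EGR1* and *IER2*, higher in replicate 1 by log2 2.0, 1.98, 1.68 and 1.36, and *NR4A3*, *CYR61* and *CTGF*, with log2 gaps of -1.93, -1.51 and -1.26. *ZFP36*, which binds and destabilises the RNA of *FOS* and other immediate-early genes, was at 165 CPM in LA replicate 1 and 17.7 CPM in LA replicate 2. The other RNA decay factors named below were closer between LA replicates 1 and 2. *ZFP36L2* was at 101 and 105 CPM, *HNRNPD* at 160 and 146, *KHSRP* at 135 and 139, and *CNOT7* at 147 and 110. A role of RNA decay was not tested. *ALK* counts ran opposite to *FOS* and *ZFP36*, with 2 in replicate 1 and 15 in replicate 2.

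**Figure D3:**
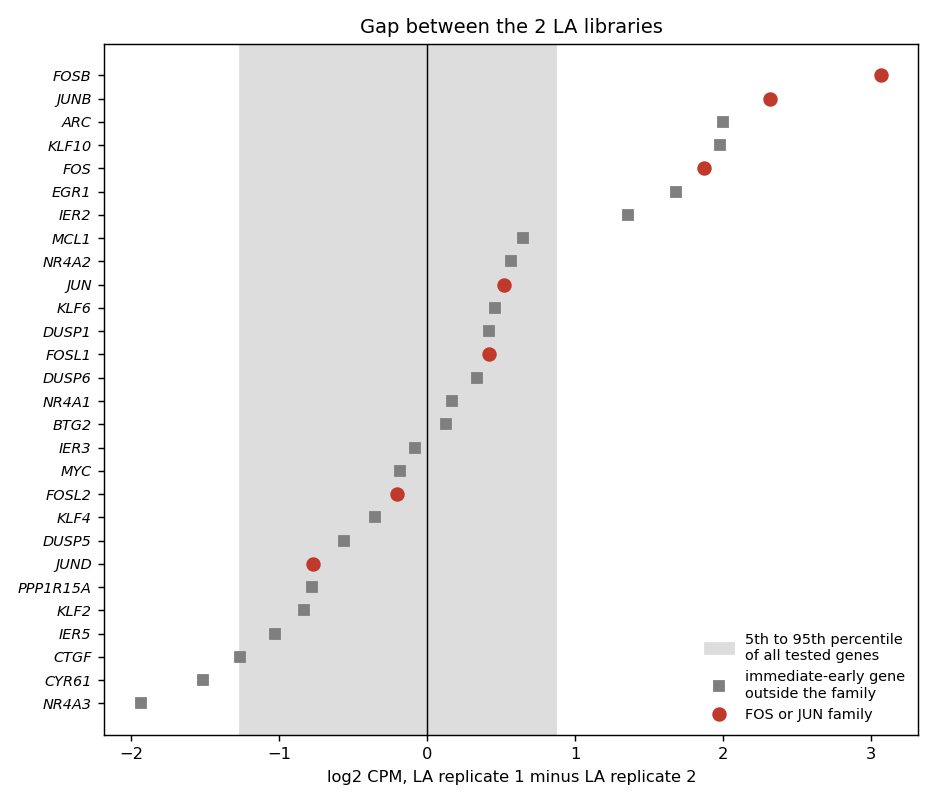
Points show log2 CPM in LA replicate 1 minus LA replicate 2 for the 7 members (red circles) and 21 immediate-early genes outside the family (grey squares), and the band spans the 5th to the 95th percentile of all 14425 tested genes, from -1.26 to 0.87. FOSB, JUNB and FOS lie to the right of the band at 3.07, 2.32 and 1.87, and the other 4 members lie inside it.

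The sgScr group is the control of the *FOS* editing experiment and carries the fusion guides, so its comparison with LA shows how far the starting point of that experiment lay from the fusion cells described above. The scramble guide, passage and library preparation cannot be told apart in it. *JUN* was higher and *FOSL2* and *JUND* were lower in sgScr cells than in LA cells: 1 of 7 members was called higher and 2 lower, against 10.6% and 12.3% of 14521 genes. *JUN* was at 142, 143 and 151 CPM in the sgScr libraries against 78.1 and 54.6 CPM in LA. All sgScr libraries lay above both LA libraries, and the change was 2.13-fold (log2 1.09, SE 0.15, adjusted p = 0.00796). *JUND* was at 90.0 to 90.3 CPM against 119 and 202 CPM (log2 -0.88, SE 0.22, adjusted p = 0.0356, or -0.57 and 0.00899 after the correction). *FOSL2* was at 89.5 to 98.3 CPM against 127 and 147 CPM (log2 -0.58, SE 0.10, adjusted p = 0.0142).

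*FOS* was at 198 to 205 CPM in sgScr cells, between the LA libraries, and *FOSB* at 50.3 to 72.7 CPM likewise. Their direction depended on which LA library was used. Against LA replicate 2 alone, *FOS* was at log2 1.10 and *FOSB* at 1.82, and against LA replicate 1 alone they were at log2 -0.76 and -1.24. With 1 LA library the spread between LA libraries cannot be estimated, so these are effect sizes only. *JUNB*, at 126 to 134 CPM against 118 and 23.6 CPM, had a log2 value of 0.85 (adjusted p = 0.319), 2.43 without LA replicate 1 and 0.12 without LA replicate 2. Without any 1 of the sgScr libraries, 0 members were called, against 171 to 222 genes called higher and 218 to 310 called lower. The fit of all 9 libraries called 1 member (*JUN*), against 569 higher and 867 lower of 14849 genes.

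The comparison of sg*FOS* with sgScr shows how the family changed when *FOS* was the target. *FOS* and *FOSB* fell, *FOSL1* and *FOSL2* rose, and *JUN*, *JUNB* and *JUND* did not pass the test, so the called changes were all in the FOS genes. Of 7 members, 2 were called higher and 2 lower, against 12.2% and 10.5% of 14196 genes. *FOS*, the targeted gene, was at 68.6 and 74.3 CPM in the sg*FOS* libraries and at 202, 198 and 205 CPM in the sgScr libraries. It was 2.79-fold lower (log2 -1.48, SE 0.044, adjusted p = 2.0e-25) and ranked 1 by p among all genes. *FOSB* was at 17.9 and 25.3 CPM against 50.3 to 72.7 CPM. Its fall of 2.92-fold (log2 -1.54, SE 0.11, adjusted p = 2.6e-14) was close in size to that of *FOS*, and no guide was directed at it.

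*FOSL1*, which encodes the FOS protein FRA1, was at 57.3 and 59.5 CPM in sg*FOS* cells and at 45.3, 44.4 and 40.9 CPM in sgScr cells. It was 1.35-fold higher (log2 0.44, SE 0.058, adjusted p = 2.5e-07). *FOSL2*, which encodes FRA2, was at 131 and 127 CPM against 94.3, 89.5 and 98.3 CPM, 1.39-fold higher (log2 0.47, SE 0.043, adjusted p = 5.8e-11). Both rises were under the log2 threshold of 0.5 that the study used. The JUN genes moved little. *JUN* was at 141 and 141 CPM against 142 to 151 CPM (log2 -0.03, 95% interval -0.11 to 0.05, adjusted p = 0.656), and *JUNB* at 132 and 132 CPM against 126 to 134 CPM (log2 0.03, interval -0.05 to 0.11, adjusted p = 0.650), with -0.05 after the length and GC correction. *JUND* was at 83.6 and 82.5 CPM against 90.0 to 90.3 CPM (log2 -0.11, interval -0.20 to -0.02, adjusted p = 0.0825), and was called lower after that correction (log2 -0.22, adjusted p = 1.8e-04).

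The spread between these libraries was small (biological coefficient of variation 0.0296, against 0.329 for LA and A549). In a fit of all 9 libraries, which estimates the spread with the A549 and LA libraries included, the log2 fold changes of *FOS*, *FOSB*, *FOSL1* and *FOSL2* were -1.49, -1.54, 0.43 and 0.46 and 0 of 7 members and 0 of 14849 genes were called. The 4 calls held when any 1 of the sgScr libraries was left out. Without sg*FOS* replicate 1 or 2 the directions held, with *FOS* at log2 -1.43 and -1.54.

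**Figure D4:**
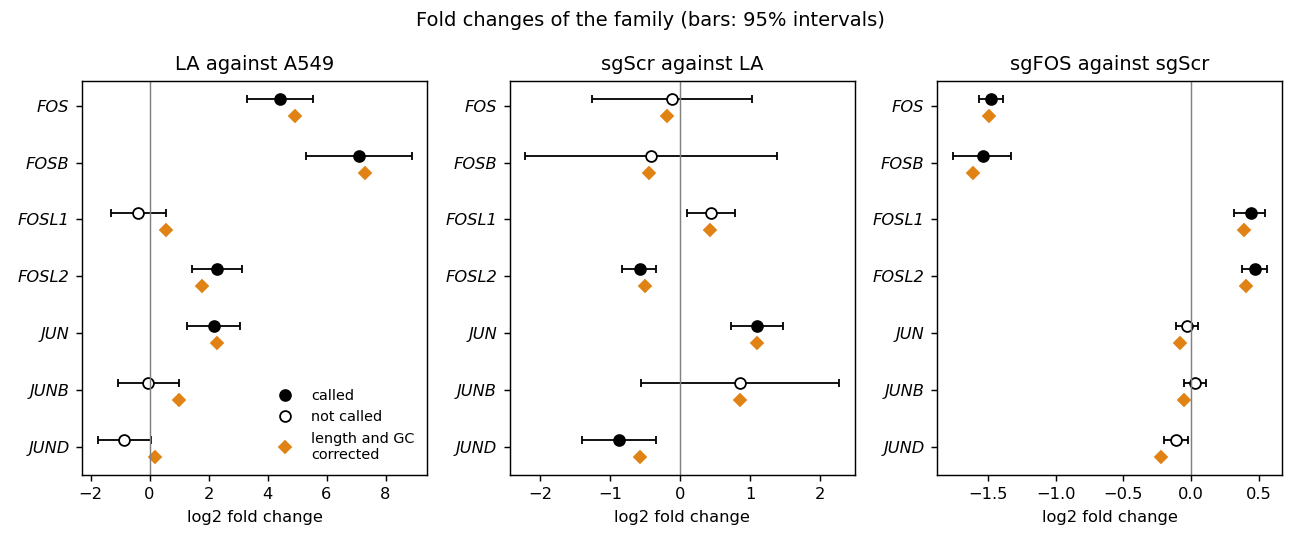
Log2 fold changes of the 7 members in 3 comparisons, with circles for the main edgeR fit (filled where called at an adjusted p under 0.05, bars for 95% intervals) and orange diamonds for the fit corrected for transcript length and GC content. In LA against A549 the diamonds of FOSL1, JUNB and JUND lie on the other side of 0 from the circles, and as does that of JUNB in sgFOS against sgScr, where FOS and FOSB lie at -1.48 and -1.54.

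Both groups of the editing experiment were also set against A549 cells. These comparisons share the A549 libraries with the first one, so their values are given side by side and are not further evidence for it. In sgScr against A549, 5 members were called higher and 1 lower, against 19.8% and 21.7% of 14482 genes. *FOS* (log2 4.34, adjusted p = 0.00146), *FOSB* (6.72, 0.00432), *JUN* (3.32, 0.00404), *FOSL2* (1.77, 0.00468) and *JUNB* (0.86, 0.0157) were higher, *JUND* was lower (-1.66, 0.0103) and *FOSL1* was at 0.12 (0.822). After the length and GC correction *FOSL1* was called higher (1.02, 0.0115), *JUNB* was at 1.89 (0.00181), *FOSL2* at 1.31 (0.00181) and *JUND* at -0.30 (0.0363). In the fit of all 9 libraries *JUNB* was not called (0.84, 0.194). Without replicate 1, 2 or 3 of sgScr, 3, 1 and 1 members were called, *FOS* among them each time. Over all genes, 117, 3 and 3 were called higher and 13, 0 and 0 lower. *FOSL1* was at log2 0.96 without A549 replicate 1 and at -0.43 without A549 replicate 2.

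In sg*FOS* against A549, edgeR called 0 of 7 members, against 0.00713% of 14031 genes called higher (1 gene, *EGR1*) and 0% called lower. At an unadjusted p under 0.05, 5 members and 2538 genes were higher and 1 member and 2748 genes were lower. The DESeq2 Wald test called 5 members higher and 1 lower, against 1705 and 1909 of 19352 genes. *FOS* in sg*FOS* cells was fitted at 7.10 times its A549 level (log2 2.83, SE 0.24, adjusted p = 0.0502), *FOSB* at log2 5.15, *JUN* at 3.27, *FOSL2* at 2.21, *JUNB* at 0.86 and *JUND* at -1.79 (adjusted p from 0.0502 to 0.0774). *FOSL1*, at 57.3 and 59.5 CPM against 57.1 and 22.1 CPM in A549, had a log2 value of 0.53 (adjusted p = 0.438). The groups did not overlap for any of the 7 members, but neither did they for 71.5% of all genes, and for *FOSL1* the nearest libraries were 57.32 and 57.06 CPM. After the length and GC correction 6 members were called, against 1052 genes higher and 844 lower of 13677. *FOSL1* was at 1.43 (adjusted p = 0.0304), *JUNB* at 1.84 (0.0205) and *FOSL2* at 1.71 (0.0205), and *JUND* was not called (-0.51, 0.0541). Leaving out A549 replicate 1 or 2 gave 7 and 6 called members, and leaving out either sg*FOS* library gave 3. Each sg*FOS* library thus held more *FOS* RNA than either A549 library, 68.6 and 74.3 CPM against 10.5 and 9.14 CPM.

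Ratios between 2 members within a library need no scaling between libraries. They were computed per length and compared on the log2 scale with exact permutation tests, two-sided, for 6 ratios in each comparison. With 2 libraries against 2 the smallest p is 0.333 and with 2 against 3 it is 0.100, so no ratio could pass 0.05 and the ratios are descriptions. The ratio of *FOS* to its partner *JUN* was 1.45 and 0.816 in A549, 6.66 and 2.60 in LA, 2.10 to 2.20 in sgScr, and 0.752 and 0.818 in sg*FOS*. With merged exon length the values were 1.07 and 0.600, 4.89 and 1.91, 1.54 to 1.61, and 0.553 and 0.601, so their size depends on the length used. Their order between libraries cannot depend on it, because the length scales a ratio by the same factor in every library. Every LA and sgScr library lay above both A549 libraries, and the sg*FOS* values overlapped the A549 range. Between sg*FOS* and sgScr it changed 2.74-fold (exact p = 0.100, adjusted p = 0.300).

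The ratio of *FOSL1* to *FOS* differed between LA and A549 by -4.36 on the log2 scale (exact p = 0.333). *FOSL1* was at 6.72 and 2.99 times *FOS* in A549, 0.132 and 0.360 in LA, 0.247 to 0.278 in sgScr, and 1.03 and 0.991 in sg*FOS*, where merged exon length gave 1.41 and 1.35. The groups did not overlap in any of the comparisons made except that of sgScr with LA, and the change from sgScr to sg*FOS* was 3.79-fold (exact p = 0.100). In contrast, the ratio of *FOSB* to *FOS* was 0.137 to 0.201 in sgScr and 0.145 and 0.190 in sg*FOS*, a difference of -0.06 on the log2 scale (exact p = 0.900). In A549 this ratio was 0.0567 and 0.00719, the latter from 2 counts of *FOSB*. The ratio of *FOSL2* to *FOSL1* also stayed close between sgScr (0.512 to 0.609) and sg*FOS* (0.580 and 0.541), both genes having risen.

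Among the JUN genes, *JUND* exceeded *JUN* per length 57.1-fold and 17.9-fold in A549, 2.57-fold and 6.26-fold in LA, and 1.01-fold to 1.07-fold in sgScr. In sg*FOS* cells the ratio was 0.999 and 0.991. The ratio of *JUNB* to *JUN* was 13.1 and 6.10 in A549, 2.68 and 0.768 in LA, 1.58 to 1.63 in sgScr, and 1.66 and 1.67 in sg*FOS*. Both ratios were highest in the A549 libraries, and in sgScr and sg*FOS* cells the 3 JUN genes lay between 42.8 and 73.4 CPM per kilobase.

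**Figure D5:**
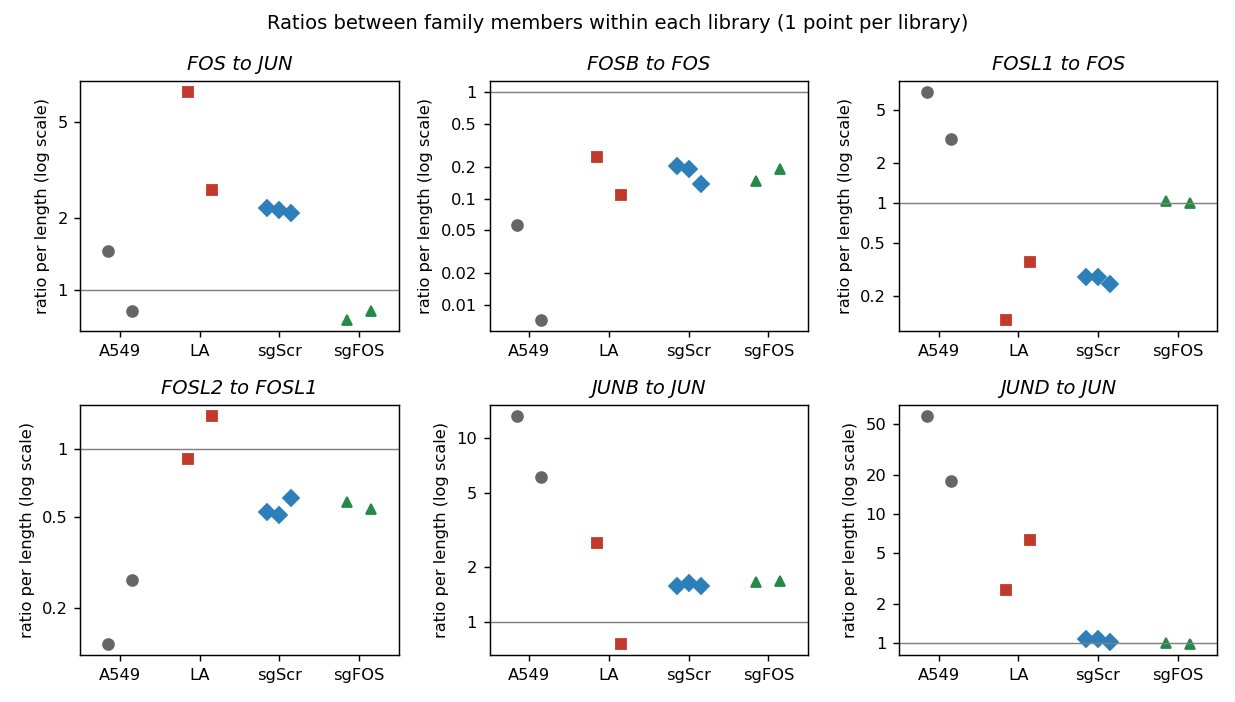
Each panel shows the ratio of 2 members per transcript length on a log axis, with 1 point per library and a line at 1, for the 4 groups. FOSL1 exceeds FOS in A549 (6.72 and 2.99), lies below it in LA and sgScr, and is at 1.03 and 0.991 in sgFOS (1.41 and 1.35 with merged exon length), whereas FOSB to FOS is alike in sgScr and sgFOS.

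Genes around the family were read from 7 lists. Over all genes, 9.57% were called higher and 9.94% lower in LA against A549. The shares were 10.6% and 12.3% in sgScr against LA, and 12.2% and 10.5% in sg*FOS* against sgScr. All list counts below stand against these shares, and 1 call in a short list is near them. Immediate-early genes outside the family were the list with the most calls in LA cells: of 21 tested, 12 were called higher and 0 lower than in A549 (median log2 fold change 1.61). *EGR1*, a zinc finger transcription factor of the same signal, rose most (log2 4.61, adjusted p = 9.8e-06), followed by *CTGF* (2.90, 0.00135) and *DUSP1*, a phosphatase that inactivates ERK, JNK and p38 (2.39, 0.00141). Against LA, sgScr cells had 2 higher and 7 lower, with *BTG2* at log2 1.86, *NR4A3* at -2.51 and *CTGF* at -1.47. The sg*FOS* cells had 3 higher and 11 lower than sgScr (median -0.13, against -0.001 over all genes). The orphan nuclear receptors *NR4A2* (log2 -1.19, adjusted p = 3.3e-07) and *NR4A1* (-0.88, 4.0e-11) fell, and the antiproliferative gene *BTG2* rose (0.69, 6.4e-06). Both falls were smaller than that of *FOS*.

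Of 33 tested genes commonly given as AP-1 targets, 5 were called higher and 4 lower in LA cells (median 0.07), against 9.57% and 9.94% of all genes. After the length and GC correction 6 were higher and 1 lower (median 0.11), so the split in direction depended on the correction. *MMP7*, a matrix metalloproteinase, fell (log2 -2.26, adjusted p = 0.00142), as did *TXN* (-1.91, 0.00583, or -0.98 and 0.0743 after the correction). Between sgScr and LA, 9 were higher and 9 lower of 32, with *MMP2* at log2 2.39 and the chemokines *CCL2* and *CXCL8* at -2.71 and -2.03. After *FOS* editing, 19 of 31 were called higher and 5 lower (median 0.26), against 12.2% and 10.5% of all genes. *CDKN1A*, the cell cycle inhibitor p21, was at 276 and 265 CPM in sg*FOS* cells and 112 to 120 CPM in sgScr cells (2.34-fold, adjusted p = 6.5e-25). *MMP7* was at 78.8 and 77.9 CPM against 39.7 to 45.3 CPM (1.86-fold, 1.8e-15). The larger part of the tested list thus rose, and what raised these genes was not tested.

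Among AP-1 partners outside the families, 2 were called higher and 1 lower of 15 in LA cells, near the shares of 9.57% and 9.94% over all genes. *ATF3* (log2 2.15, adjusted p = 0.00775) and *MAFK* (1.41, 0.0264) were higher, and *BATF3* was lower (-2.19, 0.00447, or -0.74 and 0.154 after the correction). Relative to LA, 1 partner was higher in sgScr (*NFE2L1*, log2 0.73) and 2 lower (*ATF3*, -1.01, and *ATF5*, -0.50). Relative to sgScr, 2 were higher in sg*FOS* (*NFE2L3*, 0.38, and *ATF5*, 0.31) and 2 lower, of which *ATF2*, a partner of JUN, was at -0.31 (adjusted p = 8.9e-05).

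Of 9 CREB factors and SRF and ETS factors that act on the *FOS* promoter, 1 was called higher in LA cells and 0 lower. The 1 higher call is near the 9.57% over all genes. It was *MKL2*, a coactivator of SRF (log2 1.46, or 0.70 and adjusted p = 0.0948 after the correction). In sgScr cells *SRF* (0.57) and *ELK1* (0.37) were higher and *MKL1* (-0.46) was lower than in LA. In sg*FOS* cells *SRF* (log2 0.39, adjusted p = 2.8e-06) and *ELK3* (0.16, 0.00669) were higher and 2 were lower, including *ELK4* (-0.29, 6.0e-04), relative to sgScr.

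Of 8 factors that control decay of FOS family RNA, 1 was called higher in LA cells, near the 9.57% over all genes. This was *ZFP36* (log2 1.87, adjusted p = 0.0315, or 0.0682 after the correction). Its LA values of 165 and 17.7 CPM overlapped the A549 values of 21.9 and 27.1 CPM. *HNRNPD* (0.62) and *KHSRP* (0.30) were higher in sgScr than in LA. Between sg*FOS* and sgScr, 0 were higher and 5 lower, or 3 lower after the correction. *ZFP36* was at 43.4 and 40.8 CPM against 56.9 to 71.0 CPM (log2 -0.61, adjusted p = 4.4e-09), *ZFP36L2* at log2 -0.23 and *CNOT7* at -0.16. *ZFP36* is itself an immediate-early gene, and its fall had the direction of *FOS*.

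Among kinases that phosphorylate FOS or JUN proteins, 1 of 12 was called higher in LA cells, near the 9.57% over all genes. This was *GSK3B* (log2 1.40, or 0.67 and adjusted p = 0.117 after the correction). In sgScr cells *GSK3B* was lower (-0.52) and *RPS6KA1* was higher (0.34) than in LA. Editing of *FOS* left 0 kinases higher, and 1 of 11 was lower (*RPS6KA3*, log2 -0.24, adjusted p = 4.3e-06). Of 9 ubiquitin ligase parts, 2 were higher in LA cells, among them *ITCH* (1.38), which was not called after the correction (0.74, adjusted p = 0.0838). Of these parts, 0 were called between sgScr and LA at an adjusted p under 0.05 with edgeR. In sg*FOS* cells 2 were lower than in sgScr, among them *SKP1* (-0.10). Set against A549, sgScr cells had 13 immediate-early genes called higher and 0 lower, 10 and 10 AP-1 targets, 4 and 1 partners, 5 and 1 SRF, ETS and CREB factors, 3 and 0 decay factors, 3 and 1 kinases and 4 and 1 ligase parts. These counts are of 21, 32, 16, 9, 8, 11 and 9 genes tested and stand against 19.8% higher and 21.7% lower over all genes, so those of the partners and kinases are near the background for higher calls. After the length and GC correction they were 17 and 1, 12 and 7, 5 and 1, 3 and 1, 4 and 2, 2 and 1, and 3 and 1. In sg*FOS* against A549, *EGR1* (log2 5.31, adjusted p = 0.0363) was the 1 listed gene called, and the only 1 of 14031 genes. The corrected fit called 1052 genes higher and 844 lower of 13677. In it 11 immediate-early genes were higher and 1 lower, and 11 AP-1 targets were higher and 2 lower.

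The genes whose levels ran closest to those of *FOS* over the 9 libraries were sought among 11883 genes whose counts averaged 50 or more. They were *CBX5*, *BAG5*, *CACNA1D*, *CDON* and *KIAA0232*, with Pearson correlations of log2 CPM of 0.992, 0.988, 0.986, 0.986 and 0.977. Their ranges were narrower than that of *FOS*, for example 178 to 379 CPM in *CBX5*. For *JUN* they were *SP1*, *SMC1A*, *ERC1*, *LAMC1* and *DSP* (0.997 to 0.998), and for *FOSL1* they were *ELL*, *SLC5A6*, *TPD52L2*, *GTPBP3* and *MNT* (0.953 to 0.979). No immediate-early gene was among them, and the correlations are descriptions over libraries that share groups and depth. The levels were not corrected for length and GC content, with which fold changes against A549 ran, so shared regulation cannot be read from them.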

How the data were processed

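The deposited data were raw counts of reads per gene for 9 libraries, which the authors made without normalization from stranded, paired-end libraries aligned to hg19 with STAR. The submitters' processing notes name STAR 2.7.10b, and the methods name DESeq2 1.26.0. The program, annotation and strand setting of the counting are not given in the sources used here, so reads on overlapping or antisense genes may be shared.

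Counts were tested in R 4.3.3 with edgeR 4.0.16 (TMM, filterByExpr, quasi-likelihood test, two-sided, Benjamini-Hochberg adjustment over all genes tested), fitting the libraries of each comparison alone. DESeq2 1.42.0 was an alternative. Transcript length, GC content and gene positions were read from a GENCODE annotation lifted to GRCh37. The correction for length and GC content was a loess curve per library (span 0.5), entered as an offset. On simulated counts, 73.2% of genes changed by log2 2 and 10.0% of those changed by log2 1 were recovered in the design of LA against A549 (14111 genes), and 100% and 93.9% in that of sg*FOS* against sgScr (14029 genes).

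The members and lists were chosen with earlier results of these data known. Named genes are the members, up to 3 called genes with the largest change per list and comparison (mean of at least 50 counts), the 5 genes most like *FOS*, *JUN* and *FOSL1*, and *ALK*. Some genes that this rule names are not reported here. Replicate numbers were not treated as pairs, because the deviations of same-numbered libraries correlated between -0.269 and 0.0745.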

Additional observations from a re-analysis of the deposited data

How the results depend on the processing

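Of the members' fold changes, those of *FOS*, *FOSB*, *FOSL2* and *JUN* in LA against A549 and of *FOS*, *FOSB*, *FOSL1* and *FOSL2* in sg*FOS* against sgScr kept their direction under every alternative. Leaving out a replicate, the number of members called ranged from 3 to 6 in LA against A549, 0 to 7 in sgScr against LA, 4 to 4 in sg*FOS* against sgScr, 1 to 7 in sgScr against A549 and 3 to 7 in sg*FOS* against A549, where a lone library is assumed to vary like the other group. The fit of all 9 libraries called 1 member in sgScr against LA and 0 in sg*FOS* against sgScr (*FOS* log2 -1.49, adjusted p = 1.00), and the study's threshold (log2 over 0.5, unadjusted p under 0.05) called 2 there. In sg*FOS* against A549, where 0 were called, DESeq2 called 6, no filter 5, all 9 libraries 5, the replicate block 5, the length and GC correction 6, that correction with the block 6, and the study's threshold 6. In the order of these fits before the study's threshold, 1705, 638, 2969, 1623, 1052 and 1635 genes were called higher. Those called lower were 1909, 367, 2855, 1419, 844 and 1206. At an unadjusted p under 0.05 without the log2 limit, 2538 genes were higher and 2748 lower there. In sg*FOS* against sgScr they were 2478 and 2334.

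Signs turned for members that the reported fits did not call. In LA against A549, *JUNB* was 0.258 with library size alone, *FOSL1*, *JUNB* and *JUND* were 0.567, 1.00 and 0.204 with the length and GC correction and 0.575, 0.475 and 0.201 with the replicate block added, *FOSL1* ran from -0.988 (without A549 replicate 2) to 0.433 and *JUNB* was 0.183 without A549 replicate 1, and *JUNB* ran from -1.64 (without LA replicate 1) to 0.711 (without LA replicate 2). In sgScr against LA, *FOS* and *FOSB* were 0.144 and 0.375 with the replicate block and 0.0972 and 0.443 with the block and the correction. They were 1.10 and 1.82 without LA replicate 1, against -0.764 and -1.24 without LA replicate 2. In sg*FOS* against sgScr, *JUNB* was -0.0505 with the correction and -0.0330 with the block added. *FOSL1* was -0.432 in sgScr against A549 and -0.0352 in sg*FOS* against A549 without A549 replicate 2, and 0.965 and 1.38 without A549 replicate 1. The causes were not tested.

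Whether the replicate numbers pair the libraries is not known from the labels. Over all genes, the replicate block changed the calls in LA against A549 from 1380 higher and 1434 lower to 791 and 728, and in sg*FOS* against A549 from 1 and 0 to 1623 and 1419. A crossed pairing of LA and A549, chosen after seeing the data, called 1977 and 1901 genes and 4 members. Library size alone changed the split in LA against A549 to 1601 higher and 682 lower, with the median of all genes at 0.328. With 2 libraries a group and a coefficient of variation of 0.329, log2 changes near 1 were mostly beyond reach in LA against A549.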
